A study of Homo sapiens with 16 samples.

Results

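The 10 genes described here encode the machinery that presents peptides on MHC class I molecules: B2M, TAP1, TAP2, TAPBP, PSMB8, PSMB9, HLA-E, HLA-F, ERAP1 and NLRC5. They were followed in 8 human B-cell lines that the series title groups as mantle cell lymphoma lines, each kept for 20 hours in 5 uM of the IKKbeta inhibitor AFN700 or in its solvent, DMSO, at 0.025%. Each line and treatment has a single Affymetrix expression array, 16 in all. By the label for sensitivity to stn and ibrutinib, REC-1 and SP49 are sensitive, and the insensitive lines are JVM-13, JVM-2, Maver-1, Z-138, GRANTA-519 and HBL-2. DMEM was the medium of GRANTA-519, RPMI that of all others. The title of the treated JVM-13 array names AFN700, while its other labels name AFN701. A gene's probe sets were those that the platform annotation gives to that symbol alone, and the probe set of highest mean signal stood for the gene. This gave 25 probe sets for the 10 genes, out of 19775 genes with such a probe set. All 10 genes passed the filter on low values, which left 12305 tested genes. All values are MAS5 intensities scaled by the authors to a common trimmed mean, and differences are on the scale of log2(intensity + 3.3), which understates the change of low genes. Replicate cultures were not labelled, so each p-value rests on the spread between lines and between single arrays.

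The proteasome cuts cytosolic proteins into peptides, and its inducible subunits favour fragments that bind class I molecules. The transporter TAP carries these peptides into the endoplasmic reticulum, where aminopeptidases trim them and a loading complex with tapasin places them on a heavy chain paired with beta-2-microglobulin. T cells then read the complex at the cell surface, and natural killer cells respond to HLA-E. In lymphoid cells NLRC5 is a main transcriptional activator of class I genes, and NF-kB, which IKKbeta releases, and interferon-regulated factors can also bind class I pathway promoters. By the RefSeq annotation of GRCh38.p14, 7 of the 10 genes lie in the major histocompatibility region on chromosome 6. From one end these are HLA-F at 29723434 to 29738532, HLA-E at 30489509 to 30494194, then TAP2 at 32821831 to 32838739, PSMB8 at 32840717 to 32844679, TAP1 at 32845209 to 32853704, PSMB9 at 32854192 to 32859851, and TAPBP at 33299694 to 33314078. B2M lies on chromosome 15 at 44711517 to 44718145, ERAP1 on chromosome 5 at 96760813 to 96935854, and NLRC5 on chromosome 16 at 56989557 to 57083520.

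Several facts of the arrays touch these genes. On the DMSO array of JVM-13 the median log2 level over tested genes was 7.25, against 7.82 to 8.02 on the other arrays, and that array held the lowest DMSO value of the 8 lines for 32.4% of all tested genes. The 3'/5' signal ratio of actin, which reflects RNA quality, was 16.7 with AFN700 and 1.90 with DMSO in HBL-2, and 18.8 and 10.3 in Maver-1. Its part in the results was not tested. The B-cell markers measured (CD79A, CD79B, MS4A1, PAX5 and CD22) had summed intensities of 6039 to 11230 with AFN700 and 5141 to 10251 with DMSO. Among markers of mantle cell lymphoma, CCND1 was at 2.3 with AFN700 and 4.8 with DMSO in JVM-13 and at 79.1 and 78.7 in JVM-2, and at least 172.3 on the arrays of the other 6 lines. SOX11 was at most 1.4 in JVM-13 and JVM-2 and at least 453.1 elsewhere. CD5 was at 89.2 and 71.0 in Maver-1 and at most 20.6 elsewhere. Summed T-cell markers reached 372 with AFN700 and 293 with DMSO, both in REC-1, which carried 164 and 141 of CD3D and 147.0 and 89.1 of CD3E. The other T-cell markers measured did not follow: CD3G was at 59.0 and 61.4 in REC-1 but at 91.6 and 106.1 in Z-138. CD2 was at 1.5 and 1.1 in REC-1. Summed markers of myeloid cells, fibroblasts and epithelium stayed under those of B cells, with highest sums of 380, 328 and 497 with AFN700 and 270, 627 and 414 with DMSO.

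REC-1 had far lower signal than the other 7 lines for both nonclassical heavy chains. HLA-E, which displays leader peptides to natural killer cell receptors, was at 4.6 with AFN700 and 6.9 with DMSO in REC-1. In the other 7 lines it lay between 826.7 and 1979.4 with AFN700, median 1087.6, and between 809.8 and 1791.9 with DMSO, median 1119.9. HLA-F, a heavy chain that can reach the surface without peptide, was at 28.1 with AFN700 and 40.5 with DMSO in REC-1. Its other lines spanned 810.8 to 1876.4 with AFN700 and 915.7 to 1781.1 with DMSO. Neither range came near the REC-1 values. An array reads the RNA of all cells together, so fewer cells with a transcript and less of it per cell cannot be told apart. The low signal held on every probe set of both genes: the other 2 HLA-E sets had 34.0 to 40.0 and 22.7 to 30.8 in REC-1, and the other 2 HLA-F sets had 38.4 to 44.1 and 2.3 to 3.1. Several of these sets are of a kind whose probes can also match related HLA genes, so signal of one heavy chain can enter another's value. HLA genes also differ in sequence between people, and whether the alleles of REC-1 match these probes was not tested. The 60th percentile of the REC-1 arrays, used in the filter on low values, was 30.4 with AFN700 and 27.9 with DMSO.

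On the average of a line's 2 arrays, the same 3 lines led for both heavy chains. JVM-2 ranked first for both genes, and GRANTA-519 and JVM-13 held the next 2 places. This order did not hold for HLA-E with AFN700 alone. There HBL-2 (1371.6) and Maver-1 (1106.4) were above JVM-13 (1087.6) and GRANTA-519 (844.2). Across the 28 pairs of lines, HLA-E differed in 9 and HLA-F in 11 at an adjusted p under 0.05, where 29.7% of all gene and pair combinations passed. A line's 2 arrays differ in treatment, so tests between lines rest on how lines differ in response, not on replicate cultures. All 7 pairs with REC-1 passed for each gene. How often pairs with REC-1 passed over all tested genes was not computed, here or for the genes below. Of neighbours in the order, only the last pair of each passed: REC-1 and Z-138 for HLA-E, and REC-1 and SP49 for HLA-F. Without REC-1 the test of differences among lines no longer called HLA-E (adjusted p = 0.0772).

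B2M, the invariant light chain that every class I heavy chain needs, varied little between lines. It spanned 4054.8 to 5317.1 with AFN700, median 4574.1, and 3249.3 to 6310.0 with DMSO, median 4648.0. REC-1 had 4150.0 with AFN700 and 3249.3 with DMSO, which was the lowest DMSO value of the 8 lines but far from background. Its spread over the 8 DMSO arrays, an SD of 0.27 on the log2 scale, stood at the 7.51 percentile of tested genes. REC-1 was lower than GRANTA-519, JVM-2 and JVM-13, by 0.38, 0.51 and 0.64 on the log2 scale (adjusted p = 0.0369, 0.00791 and 0.00179).

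**Figure D1:**
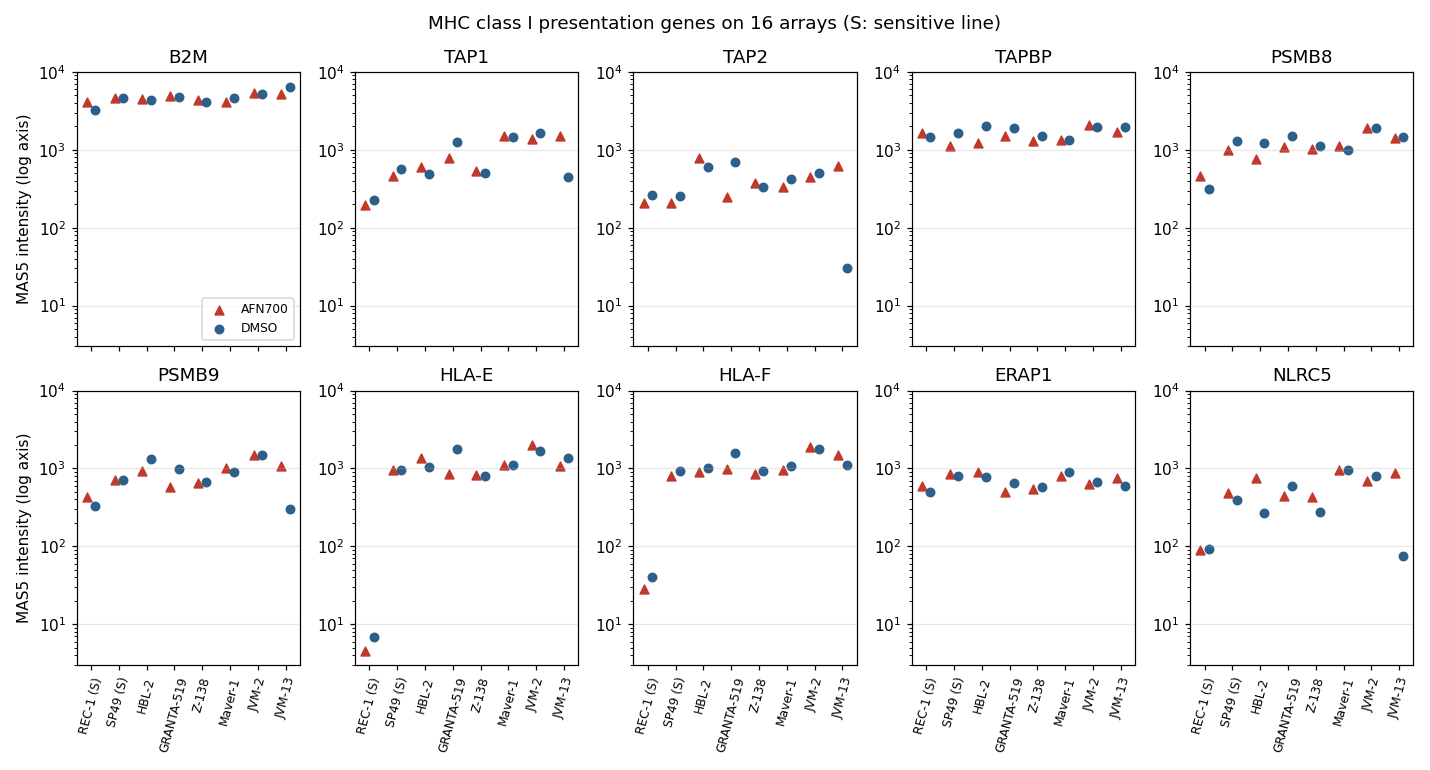
MAS5 intensity (log axis) of the 10 genes in each of the 8 lines, with triangles for AFN700 and circles for DMSO, 1 array each; S marks a sensitive line. HLA-E and HLA-F fall to between 4.6 and 40.5 in REC-1 alone, while B2M, TAPBP and ERAP1 stay within a narrow band, and TAP2 and NLRC5 drop on the DMSO array of JVM-13.

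The peptide transporter was uneven over the lines. TAP1, one subunit of the transporter, was at 193.3 with AFN700 and 228.2 with DMSO in REC-1, and the other lines held 455.9 to 1504.1 with AFN700 and 450.9 to 1657.4 with DMSO. JVM-2 and Maver-1 ranked highest. TAP1 differed in 13 of 28 line pairs, the most of the 10 genes, and in all 7 with REC-1. Of all gene and pair combinations 29.7% passed. TAP2, the partner subunit, spanned 205.6 to 778.3 with AFN700, median 354.2, and 30.2 to 706.5 with DMSO, median 376.3. Its lowest value was the DMSO array of JVM-13, which was the lowest DMSO array on all 4 TAP2 probe sets. No TAP2 pair of lines passed. Without JVM-13, TAP2 did pass the test of differences among lines (adjusted p = 0.00661, against 0.388 with it). Of the 12305 tested genes, 10370 passed that test without JVM-13 and 8907 with it, so most genes passed as TAP2 did.

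TAPBP, or tapasin, which bridges the transporter and empty class I molecules, was within a narrow range. It spanned 1111.7 to 2067.6 with AFN700, median 1414.7, and 1341.4 to 2017.8 with DMSO, median 1786.1. REC-1 had 1658.6 with AFN700 and 1448.0 with DMSO, inside both ranges. Its other 2 probe sets were dim, with means of 18.9 and 8.43. Only 1 of 28 pairs passed, Maver-1 below JVM-2 (-0.59 ± 0.21, SE, adjusted p = 0.0494).

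Of the inducible proteasome subunits, PSMB8 and PSMB9 were low in REC-1, PSMB8 more clearly than PSMB9. The third, PSMB10, is not one of the 10 genes and was not low there (933.3 with AFN700, 808.1 with DMSO). PSMB8 was at 461.1 with AFN700 and 313.0 with DMSO in REC-1, against 765.9 to 1877.5 with AFN700 and 1007.2 to 1876.7 with DMSO in the other lines. REC-1 lay below the range of the other lines under either treatment, as it did for 7.05% of all tested genes. All 7 pairs with REC-1 passed, where 29.7% of all gene and pair combinations did. PSMB9 was at 428.5 with AFN700 in REC-1, below the 579.3 to 1472.8 of the other lines. With DMSO it was at 334.4 in REC-1, just above the 297.6 of JVM-13. For PSMB9, 3 of 7 pairs with REC-1 passed. JVM-2 had the highest level of both subunits.

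ERAP1, the aminopeptidase that trims peptides in the endoplasmic reticulum, spanned 496.1 to 891.9 with AFN700 and 496.7 to 889.3 with DMSO. No pair of lines passed for it. NLRC5, the class I transactivator, spanned 91.2 to 959.9 with AFN700 and 76.2 to 953.3 with DMSO. Its lowest arrays were REC-1 with both treatments (91.2 with AFN700, 93.8 with DMSO) and JVM-13 with DMSO. Of the 7 pairs with REC-1, 5 passed for NLRC5, the exceptions being Z-138 and JVM-13, where 29.7% of all gene and pair combinations passed.

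Over the 8 lines, 7 of the 10 genes differed among lines (moderated F test, adjusted p under 0.05), against 72.4% of all tested genes, so their share was near the background. They were HLA-E, HLA-F, TAP1, PSMB8, B2M, NLRC5 and PSMB9. Leaving out REC-1 left 4 called, without HLA-E, NLRC5 (adjusted p = 0.299) and PSMB9 (0.159), while all genes called fell from 8907 to 8043. NLRC5 was also lost without Maver-1 (adjusted p = 0.0558), PSMB9 without JVM-2 (0.133) or without a trend (0.0652), and B2M with centred arrays (0.0604) or without a trend (0.223). TAP2 and ERAP1 (adjusted p = 0.00828) were gained without JVM-13, where all genes called rose to 10370 of 12305. The DMSO spread of HLA-E, an SD of 2.47 on the log2 scale, stood at the 96.2 percentile of tested genes, and that of HLA-F, 1.71, at the 88.3 percentile. By the probe set that stands for each gene, REC-1 was the lowest line with both treatments for 4 of the 10 genes. These were HLA-E, HLA-F, TAP1 and PSMB8, against 7.05% of all tested genes. With JVM-13 left out these were 6 of the 10, with PSMB9 and NLRC5 added, against 9.43% of all tested genes. It was at least 8-fold below the median of the other 7 lines with both treatments for 2 of the 10, HLA-E and HLA-F, against 1.45% of all tested genes. These counts singled out REC-1 after its values were seen and carry no test.

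**Figure D2:**
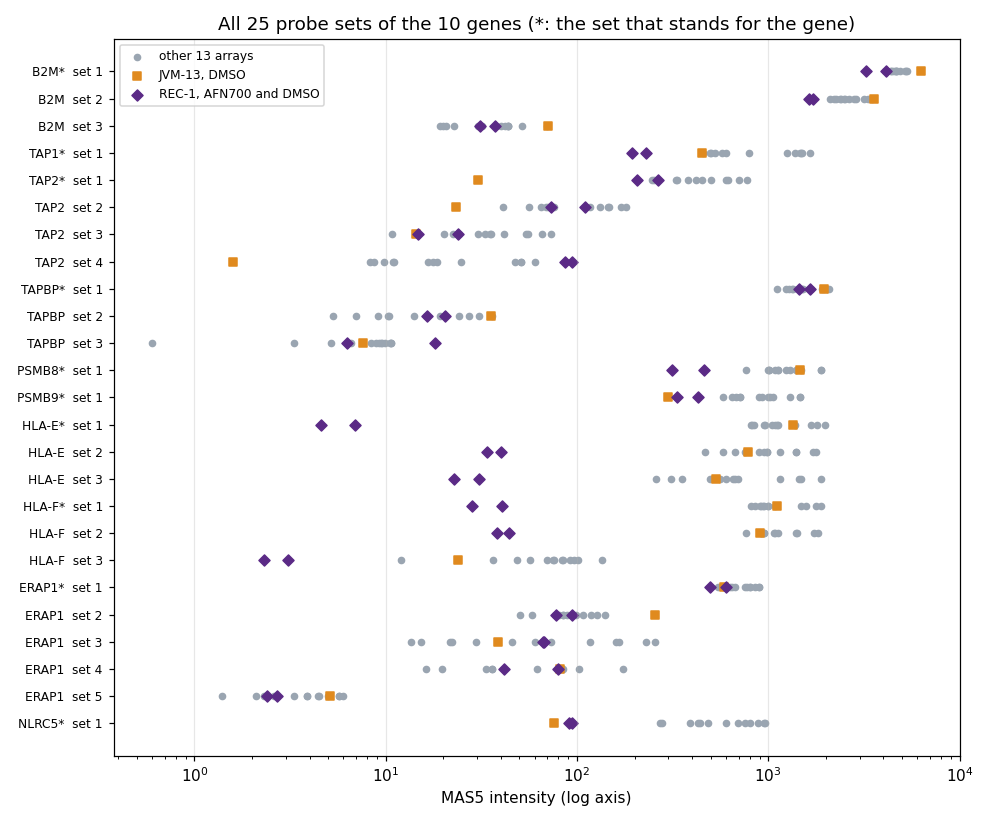
MAS5 intensity (log axis) of all 25 probe sets on the 16 arrays, with REC-1 as diamonds, the DMSO array of JVM-13 as squares and the other 13 arrays as grey circles; an asterisk marks the set that stands for its gene. REC-1 lies apart from all other arrays on the 3 HLA-E and 3 HLA-F sets, and JVM-13 with DMSO is the lowest DMSO array on the 4 TAP2 sets.

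Other heavy chains showed where REC-1 differed in the wider pathway. HLA-B was at 429.8 with AFN700 and 425.5 with DMSO in REC-1, against 2667.1 to 4214.3 and 2563.2 to 3839.2 in the other lines. HLA-C was at 1565.6 with AFN700 and 1555.4 with DMSO, against 2927.5 to 4686.5 and 2785.2 to 4660.9. HLA-G was at 65.6 and 42.6, against 706.0 to 2742.3 and 927.4 to 2555.9. All 3 measured heavy chains of that list were thus lowest in REC-1 on both arrays, by unequal amounts: the median of the other lines was 8.15 times the REC-1 value with AFN700 and 8.40 times with DMSO for HLA-B, and 2.52 and 2.58 times for HLA-C.

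The rest of the class I pathway was mostly not lowest in REC-1, as held for most tested genes. None of 4 loading chaperones or 2 further immunoproteasome and activator genes was lowest in REC-1 with both treatments. Nor was any of 3 constitutive proteasome subunits or 10 transcription factors. Among all tested genes 7.05% were, so an absence in lists this small does not set them apart. PSMB10, the remaining inducible subunit, was at 933.3 with AFN700 and 808.1 with DMSO, above the other lines' medians of 592.7 and 592.1. The chaperone calreticulin (CALR) was at 2276.7 and 1680.3, within the other lines' ranges. TAPBPL, a relative of tapasin, was low in REC-1, at 60.7 with AFN700 and 61.4 with DMSO against other lines' medians of 237.1 and 278.5, and only the DMSO array of JVM-13 was lower (43.4). With JVM-13 left out, TAPBPL and the transcription factors RFX5 and IRF1 were lowest in REC-1 with both treatments, as were 9.43% of all tested genes. RFX5, part of the complex that binds class I and class II promoters, was at 1971.5 with AFN700 and 1959.9 with DMSO, also within the ranges. Among the other peptidases, 1 of 4 was lowest in REC-1, ERAP2, at 84.3 with AFN700 and 69.2 with DMSO against other lines' medians of 743.3 and 740.1. Of the 6 tested class I-like molecules, MICB and MR1 were lowest, while CD1D, which presents lipids, was highest in REC-1 at 527.9 and 764.7.

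**Figure D3:**
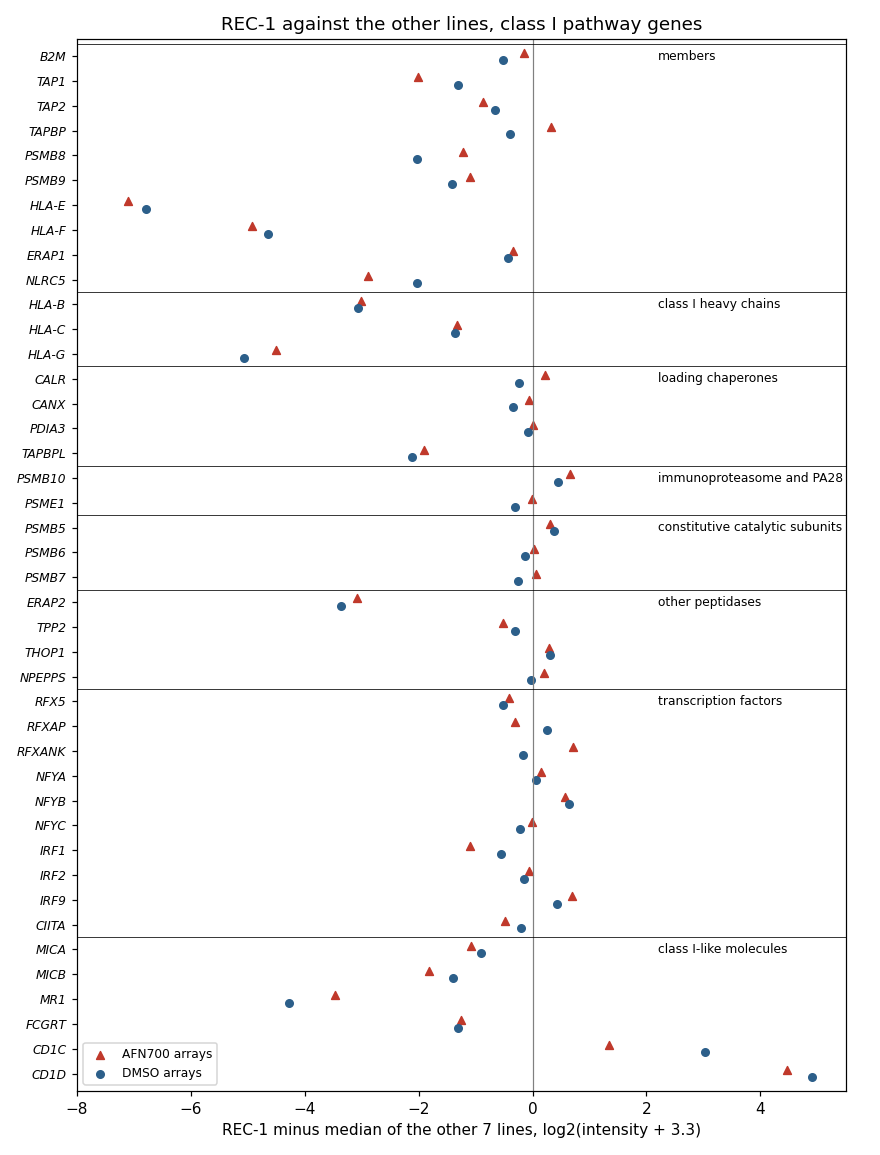
REC-1 minus the median of the other 7 lines, as a difference of log2(intensity + 3.3), for the 10 genes and the other lists of the class I pathway; triangles are AFN700 arrays and circles DMSO arrays. HLA-E, HLA-F and HLA-G lie farthest to the left, HLA-E at a place that the pseudocount helps set, while HLA-C lies at -1.33 with AFN700 and -1.37 with DMSO, and the chaperone CALR, the constitutive subunits and most transcription factors lie near 0.

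The HLA stretch on chromosome 6 was then read gene by gene, a choice made after the REC-1 values were seen. From 500000 bases beyond HLA-F to 500000 bases beyond TAPBP, 111 genes were tested. In REC-1, 16 of them were at least 8-fold below the median of the other lines with both treatments. Of these, 14 were HLA genes or pseudogenes and the other 2 were HCP5 and HCG26, noncoding genes of the same stretch. HLA-DRA, the class II alpha chain, was at 6.0 with AFN700 and 5.0 with DMSO in REC-1, where the other lines had at least 2438.4 with DMSO. HLA-DRB1, HLA-DQB1, HLA-DPA1 and HLA-DPB1 were likewise under 8 on both REC-1 arrays. Many genes between them were not low. ABCF1, which lies near HLA-E, was at 789.0 with AFN700 and 896.9 with DMSO in REC-1, against a DMSO median of 662.7 in the other lines. BRD2, between HLA-DMA and HLA-DOA, was at 693.2 and 706.4, against a median of 603.3. Some genes outside the HLA family were low too. NRM was at 29.4 and 27.3, against at least 106.5 with DMSO in the other lines. FLOT1 was at 157.6 and 123.0, against at least 188.6. Conversely, not every HLA gene was low: HLA-DOB was at 117.6 and 90.1, within the other lines' DMSO range of 19.8 to 741.6. For 70 of the 111 genes the REC-1 DMSO level lay within the range of the other lines. CIITA, the class II transactivator, was at 196.1 with AFN700 and 228.2 with DMSO in REC-1, within the other lines' ranges.

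**Figure D4:**
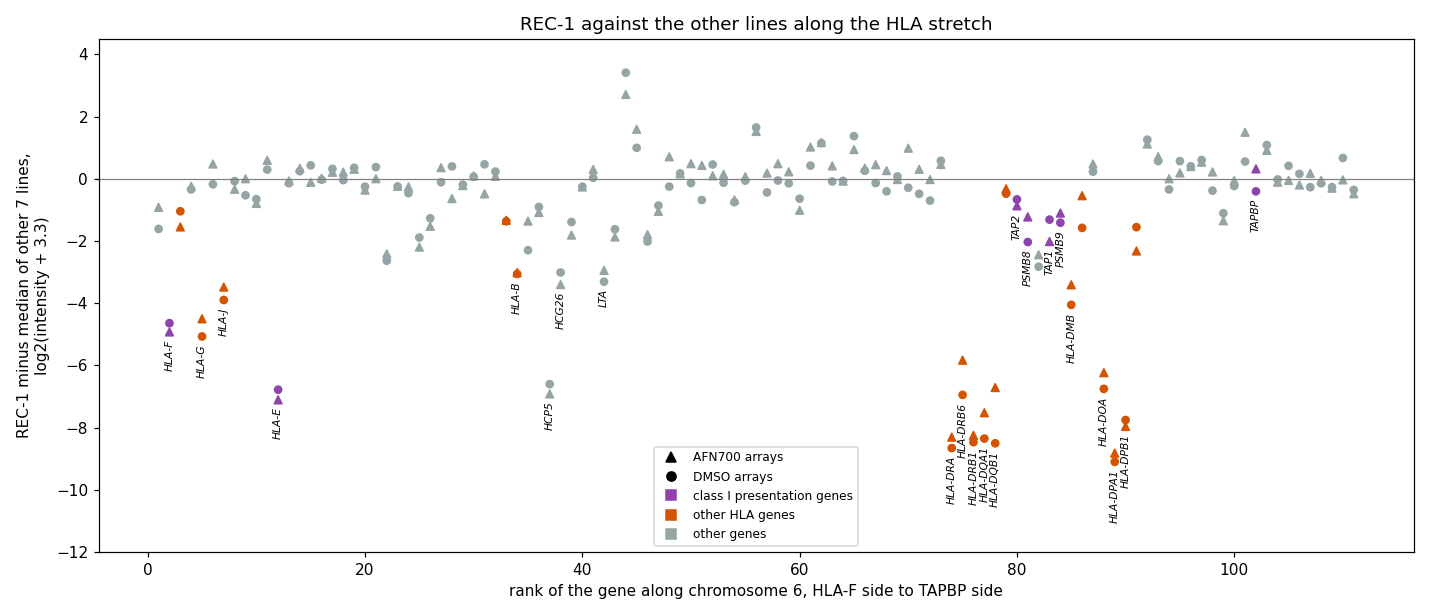
REC-1 minus the median of the other 7 lines, as a difference of log2(intensity + 3.3), for 111 tested genes in their order along chromosome 6; triangles are AFN700 arrays and circles DMSO arrays, purple the class I presentation genes, orange other HLA genes and grey other genes. The 16 genes at least 8-fold lower are HLA genes, HCP5 and HCG26, and most grey points between them lie near 0.

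None of the 10 genes passed the comparison of sensitive with insensitive lines. With DMSO, sensitive minus insensitive lines differed by -3.66 ± 1.28 (SE) for HLA-E and -2.57 ± 0.89 for HLA-F, each with an adjusted p of 0.826 and an exact permutation p of 0.0714 (smallest possible 0.0357, 2-sided). Among all tested genes 1 gene was called (0.00813%) and 702 genes had an unadjusted p under 0.05. SP49, the other sensitive line, had 961.2 of HLA-E and 941.4 of HLA-F with DMSO, both inside the insensitive range. The size for HLA-E depends on the pseudocount, since REC-1 lies near it: it was -3.84 with a pseudocount of 1 and -3.08 with 16. Without REC-1 none of the 10 was called, and HLA-E and HLA-F differed by -0.38 and -0.36. Without SP49 the sensitive side was the single REC-1 array, the spread came from the 6 insensitive lines alone, and REC-1 was assumed to vary like them. HLA-E (-6.94, adjusted p = 0.000899) and HLA-F (-4.79, adjusted p = 0.00336) were then among 46 called genes (0.374% of those tested), 27 of them lower (0.219%). The same difference was -1.20 ± 0.62 for TAP1 and -1.07 ± 0.47 for PSMB8 (adjusted p = 0.886 and 0.866).

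Because AFN700 acts upstream of NF-kB, the promoters of the genes were searched for binding motifs. The search was run after the responses had been computed. RefSeq gave a window of 250 bases before and 50 after the start for 8 of the 10 genes, and HLA-E and NLRC5 had none. Only the first window listed for a gene was used, and other starts were not searched. That of ERAP1, at 96807896 to 96808195 on chromosome 5, lies inside the gene span given above. Motifs were searched on both strands. A kappa B motif (GGG, any 2 bases, TT, any base, CC) lay in the windows of 4 genes, B2M, TAP1, TAPBP and ERAP1, and in 5.68% of all 35116 windows. An interferon response motif (GAAA repeated after any 2 bases) lay in 6 genes, B2M, TAP1, TAP2, TAPBP, HLA-F and ERAP1, and in 3.57% of all windows. CCAAT lay in 5 genes (34.61% of windows), TGACG in 4 (24.55%), and the gamma-activated motif TTCNNNGAA in none (7.66%). The windows of TAP1 and PSMB9, which run in opposite directions, shared 13 bases. The CCAAT matches of these genes are the same bases within that overlap, so that site was counted for both. A match describes letters and shows no binding. The windows shown are those of the light chain, the transporter subunit, tapasin and one heavy chain, in capitals at kappa B and interferon response matches, written 5′ to 3′ on the gene's strand, from the GRCh38.p14 RefSeq table:
B2M (chr15:44711267-44711566, plus strand): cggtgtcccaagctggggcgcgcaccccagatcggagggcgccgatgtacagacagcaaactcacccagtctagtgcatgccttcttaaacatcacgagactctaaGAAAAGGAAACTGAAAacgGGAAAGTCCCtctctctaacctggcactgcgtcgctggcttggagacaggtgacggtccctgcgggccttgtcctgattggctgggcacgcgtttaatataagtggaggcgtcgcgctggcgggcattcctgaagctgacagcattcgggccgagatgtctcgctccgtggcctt
TAP1 (chr6:32853655-32853954, minus strand): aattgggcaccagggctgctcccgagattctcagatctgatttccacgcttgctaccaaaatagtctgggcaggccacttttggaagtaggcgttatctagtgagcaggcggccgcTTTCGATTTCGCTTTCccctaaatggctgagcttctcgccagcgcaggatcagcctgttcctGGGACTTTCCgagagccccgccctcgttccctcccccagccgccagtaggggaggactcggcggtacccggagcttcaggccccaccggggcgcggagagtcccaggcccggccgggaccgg
TAPBP (chr6:33314029-33314328, minus strand): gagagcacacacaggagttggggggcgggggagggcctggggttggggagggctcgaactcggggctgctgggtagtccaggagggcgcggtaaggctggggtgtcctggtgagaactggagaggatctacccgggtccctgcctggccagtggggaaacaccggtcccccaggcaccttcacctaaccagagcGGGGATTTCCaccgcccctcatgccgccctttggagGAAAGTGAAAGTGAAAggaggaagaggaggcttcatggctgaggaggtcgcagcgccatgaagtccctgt
HLA-F (chr6:29723184-29723483, plus strand): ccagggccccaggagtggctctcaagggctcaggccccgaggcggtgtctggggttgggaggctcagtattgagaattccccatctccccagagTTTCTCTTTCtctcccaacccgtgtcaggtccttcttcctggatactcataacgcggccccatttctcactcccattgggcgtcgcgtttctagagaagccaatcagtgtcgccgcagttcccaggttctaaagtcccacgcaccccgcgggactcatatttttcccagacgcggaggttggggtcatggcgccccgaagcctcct
In B2M the kappa B match, on the minus strand, follows a pair of overlapping interferon matches. The kappa B match starts 72 bases before the start of TAP1 and 56 bases before that of TAPBP.

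AFN700 gave no called change in the 10 genes over the 8 lines. None passed the limma test at an adjusted p under 0.05, where 0.0% of all 12305 tested genes passed and 1006 had an unadjusted p under 0.05. The median log2 difference, AFN700 minus DMSO, was 0.02 over the 10 genes and 0.06 over all tested genes. The same count was 0 in the sensitive lines, in the insensitive lines and for the difference between these responses, where 351, 743 and 182 genes had an unadjusted p under 0.05.

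TAPBP came nearest. It averaged 1482 ± 309 with AFN700 and 1727 ± 269 with DMSO (SD, n = 8 lines each), a log2 difference of -0.23 ± 0.10 (SE, adjusted p = 0.606, exact sign-flip p = 0.0859). Its value was lower with AFN700 in 6 of 8 lines, REC-1 and JVM-2 being the exceptions. The sizes ran to -0.71 in HBL-2. The smallest exact p that 8 lines allow is 0.00781.

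NLRC5 had the largest mean difference, 0.65 ± 0.35 (adjusted p = 0.650), and it rested on 2 lines. In JVM-13 NLRC5 was at 885.2 with AFN700 and 76.2 with DMSO, and in HBL-2 at 753.7 and 271.0. In REC-1 it was at 91.2 and 93.8, and in Maver-1 at 959.9 and 953.3. The difference was 0.24 without JVM-13. TAP2, TAP1 and PSMB9 had mean differences of 0.26, 0.08 and 0.13, which became -0.30, -0.16 and -0.11 without JVM-13. HLA-E had -0.14 ± 0.15 and PSMB8 -0.13 ± 0.13, ERAP1 0.03 ± 0.11 and B2M 0.01 ± 0.06. HLA-F had -0.17 ± 0.12, lower in 6 of 8 lines.

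Probe sets of a gene did not always move together. The dimmest HLA-F set, with a mean of 62.3, averaged 0.75 and was higher with AFN700 in 7 of 8 lines, while the other bright set averaged 0.00. For ERAP1, sets with means of 101 and 86.2 averaged -0.49 and 0.60. On the HLA-E sets the means were -0.14, -0.09 and -0.07.

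**Figure D5:**
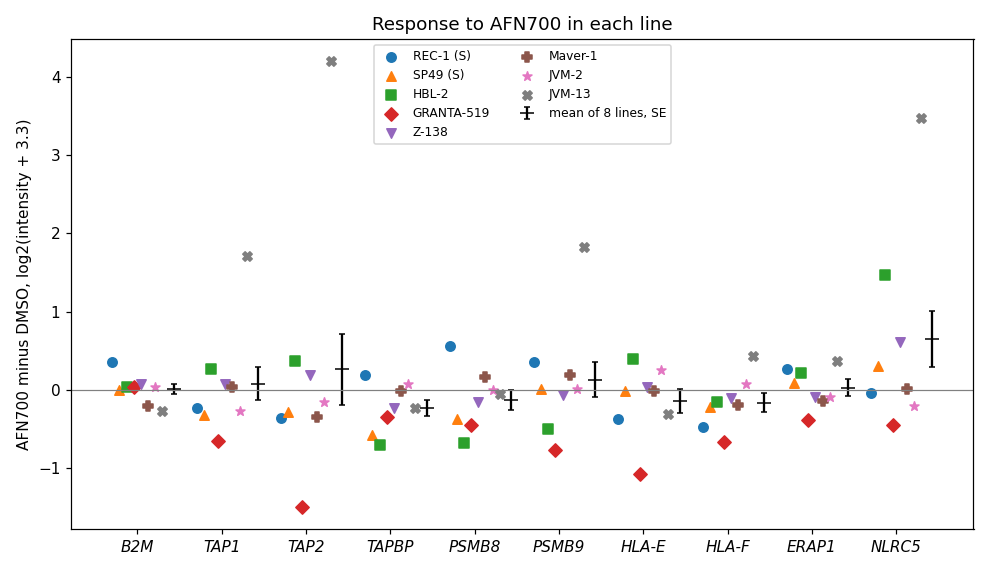
AFN700 minus DMSO, as a difference of log2(intensity + 3.3), for each gene and line, with the mean over 8 lines and its moderated standard error in black. Most points lie near 0, JVM-13 reaches 4.20 for TAP2 and 3.48 for NLRC5, and GRANTA-519 lies lowest for TAP2 at -1.50.

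Single lines gave larger differences, each from 1 pair of arrays and so without a test. In GRANTA-519, 9 of the 10 genes were lower with AFN700, with a median of -0.56, whereas 55.0% of all tested genes were lower there, with a median of -0.05. HLA-E was at 844.2 with AFN700 and 1791.9 with DMSO, TAP2 at 247.6 and 706.5, and TAP1 at 792.8 and 1253.0. PSMB9 was at 579.3 and 993.6, and HLA-F at 992.0 and 1579.0. B2M, at 4858.4 and 4721.7, was the exception. HLA-E and TAP2 passed 2-fold, where 8.14% of all tested genes did.

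In JVM-13, 4 of the 10 genes were at least 2-fold higher with AFN700, where 32.7% of all tested genes passed 2-fold in either direction. TAP2 was at 613.8 with AFN700 and 30.2 with DMSO, a log2 difference of 4.20. TAP1 was at 1487.0 and 450.9, PSMB9 at 1061.0 and 297.6. B2M, at 5222.5 and 6310.0, HLA-E, at 1087.6 and 1344.2, TAPBP and PSMB8 were not higher. These differences include the DMSO array that stood apart, and its part in them was not tested.

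In HBL-2 only NLRC5 passed 2-fold (1.46), against 14.3% of all tested genes. No member of the 10 passed 2-fold in the remaining 5 lines, where the share of all tested genes was 3.73% in SP49, 3.55% in REC-1, 3.06% in Maver-1, 2.74% in Z-138 and 2.01% in JVM-2. In REC-1, PSMB8 was at 461.1 with AFN700 and 313.0 with DMSO (0.55), and B2M at 4150.0 and 3249.3 (0.35). HLA-E and HLA-F stayed low in REC-1 with both treatments.

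NF-kB target genes gave the comparison for the inhibitor. All 6 reporters had negative mean differences, with a median of -0.56, and none was called. The lines differed: 6 of 8 were lower with AFN700 for NFKBIA, TNFAIP3, ICAM1 and RELB, 5 for NFKB2 and 7 for BCL2A1. In JVM-13 NFKBIA was higher, at 1295.6 with AFN700 and 466.9 with DMSO, as was ICAM1, at 786.3 and 196.5. In Maver-1 NFKBIA was at 382.6 and 379.6. BCL2A1, an anti-apoptotic gene, had -0.51 ± 0.15 (adjusted p = 0.466), and TNFAIP3, which encodes a restrainer of NF-kB, had -0.90 ± 0.28 (adjusted p = 0.484). NFKBIA, the inhibitor of NF-kB, had -0.63 ± 0.29. Other class I pathway genes were not called either. MR1, which presents vitamin B metabolites, was higher with AFN700 in 8 of 8 lines (0.73 ± 0.27, adjusted p = 0.562), and its mean was 0.44 without JVM-13, where it was at 180.1 with AFN700 and 23.7 with DMSO. NFYA, a subunit of the CCAAT-binding factor, was lower in 8 of 8 (-0.28 ± 0.10, adjusted p = 0.552). ERAP2, a trimming aminopeptidase, had 0.50 ± 0.31 (adjusted p = 0.674), which rested on JVM-13 (905.8 with AFN700, 105.2 with DMSO) and was 0.13 without it. The cytosolic peptidase THOP1 had -0.31 ± 0.18 and was lower in 7 of 8 lines (adjusted p = 0.665). Signs were mixed within the lists: positive in 2 and negative in 1 of the heavy chains, in 2 and 2 of the chaperones, in 1 and 2 of the constitutive subunits, in 2 and 2 of the other peptidases, in 7 and 3 of the transcription factors, and in 3 and 3 of the class I-like molecules. Both PSMB10 and PSME1 had negative means. The list medians ran between -0.13 for the constitutive subunits and 0.05 for the transcription factors, and that of all tested genes was 0.06.

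The correlation of the 10 genes over lines depended on REC-1 and JVM-13. Over the 8 DMSO arrays the Pearson correlation of the 45 gene pairs had a median of 0.57, against 0.03 over all pairs of tested genes, and all points share the arrays and their scaling. The median of the 45 pairs was 0.34 without REC-1 and 0.70 without JVM-13. HLA-E and HLA-F had the highest value, 0.997, and 0.930 without REC-1. TAP1 and NLRC5 had 0.895, then 0.855 without REC-1 and 0.977 without JVM-13. TAP2 and PSMB9 had 0.803, then 0.923 without REC-1 and 0.767 without JVM-13. For the response the median of the 45 pairs was 0.21, and 0.34 without JVM-13, against 0.04 and 0.03 over all pairs of tested genes. The genes whose DMSO level over the 8 lines was most like the mean of the 10 were NRM (0.986), POFUT3, SNX19, LOC100996583 and HCP5, each lowest in REC-1. NRM and HCP5 lie in the HLA stretch on chromosome 6. The mean of the 10 was not scaled by gene, so genes of wide DMSO range weigh most in it. Such genes include HLA-E (7.46 on the log2 scale) and HLA-F (5.35). The genes most like the mean response were POLD2 (0.994), UBE2J2, UBA1, SCLY and ATP2A3, each highest in JVM-13 and lowest in GRANTA-519.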

How the data were processed

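RNA of 8 cell lines, each with AFN700 and with DMSO, was measured on 1 array per line and treatment. The deposited intensities are linear. Per the submitters' processing notes the authors used MAS5, whose version is not given in the sources used here. Each array has a mean of 150 after trimming 2% from each end, as computed from the values. No detection calls were used, so low intensity cannot be told from background, and the number of arrays limits the precision.

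The platform table lists 42898 of 54675 probe sets. Of these, 41091 with 1 gene were used, 1801 with several were left out, and 11777 probe sets are unlisted. The analysis scale was log2(intensity + 3.3), where 3.3 is the 25th percentile of the whole table. Tested genes were above the 60th percentile of the array on 2 or more arrays. Limma 3.58.1 in R 4.3.3 (lmFit, eBayes with a trend) was fitted over all 12305 tested genes, with the line as a block, since the labels give both arrays of a line 1 cell line name. Fits had 7 residual degrees of freedom over 8 lines, and 6 with a term for each sensitivity class and for the DMSO arrays. Line pairs were adjusted over all genes and the 28 pairs together. P-values were adjusted by Benjamini-Hochberg, with 0.05 as threshold. SE is the moderated standard error. Sign-flip and permutation tests over lines were exact and 2-sided. Before use, the fit was tested on simulated arrays with less spread within lines than the real ones and the same shift of a gene in every line. That setting is easier than these data, so it does not show which responses the fit can find here.

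Members and lists were chosen with earlier results of these data known. Named genes were the 10 members, up to 3 genes of smallest p per pathway list, and the 5 most alike by Pearson correlation on each profile. The lists are heavy chains, chaperones, proteasome genes, peptidases, transcription factors, class I-like molecules, NF-kB reporters and cell type markers. PSME2, LNPEP, STAT2, TRAC and some other list genes are not analysed here. The genes named along chromosome 6, and list genes named for REC-1 alone, were chosen after their values were seen. Alternatives were other pseudocounts (1 and 16), quantile normalization, centring, other filters, other probe set rules, eBayes without a trend, a model without the line, 0.10 as threshold, and leaving out each line or both HBL-2 and JVM-13. Promoters and gene positions come from RefSeq, GRCh38.p14; motifs were exact letter matches. Figures were drawn with matplotlib 3.10.9.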

Additional observations from a re-analysis of the deposited data

Results flagged for a closer look

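Among 30 sets of 8 line values (10 genes, each with AFN700, with DMSO and as a difference), 10 held a line whose gap to its nearest neighbour, as a share of the whole range, exceeded Dixon's 95% critical value. Chance flags about 1 such set in 20, and 15.6% of all such sets over the tested genes passed, with shares of 9.59% for levels with AFN700, 15.2% for levels with DMSO and 21.8% for differences. REC-1 was the line in 6 of the 10 and JVM-13 in 4. On the scale of log2(intensity + 3.3), REC-1 was lowest with AFN700 for HLA-E at 2.98, HLA-F at 4.97 and NLRC5 at 6.56. It was lowest with DMSO for HLA-E at 3.35, HLA-F at 5.45 and PSMB8 at 8.31. JVM-13 was lowest with DMSO for TAP2 at 5.07. JVM-13 was also highest for the difference AFN700 minus DMSO, at 1.71 for TAP1, 4.20 for TAP2 and 1.82 for PSMB9. The 3 differences of JVM-13 share its DMSO array, which had the lowest median level of the 16 arrays.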

How the results depend on the processing

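Of the 10 genes, the count called for the responses (over 8 lines, in sensitive lines, in insensitive lines and their difference) stayed at 0 under every alternative run, including the fit without the line block. Over all tested genes the response over 8 lines called 0, against 10 when JVM-13 was left out and 37 when HBL-2 was left out too, none of them one of the 10. The response of the sensitive lines called 5 of all tested genes with both lines left out. The DMSO comparison of sensitive with insensitive lines called 0 to 2 of the 10 genes when 1 line was left out, the 2 being HLA-E and HLA-F without SP49, where REC-1 is the only sensitive array and the spread is that of the insensitive lines. It called 46 of all tested genes without SP49, 8 with no trend, 5 with no filter, 3 with a pseudocount of 16 and 1 as reported. Differences among lines called 4 to 9 of the 10 genes when 1 line was left out (4 without REC-1, 9 without JVM-13). They called 10 with the probe set of highest variance or when both HBL-2 and JVM-13 were left out. Of all 12305 tested genes, the same test called 8043 without REC-1, 10370 without JVM-13 and 10946 without both HBL-2 and JVM-13. With the probe set of highest variance it called 8262 of 11606. The counts of the 10 genes therefore rose along with those of all genes when JVM-13 was left out.

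The mean responses of 6 of the 10 genes changed sign under some alternative. B2M was -0.026 with quantile normalization, -0.088 with centring, -0.066 with the mean of probe sets and -0.15 with the probe set of highest variance. Centring gave -0.022 for TAP1 and -0.071 for ERAP1, and it moved the median of all genes to -0.038. The mean of probe sets gave 0.19 for HLA-F and -0.034 for ERAP1, and the probe set of highest variance gave -0.048 for TAP2. With both HBL-2 and JVM-13 left out, TAP1 was at -0.23, TAP2 at -0.41, PSMB9 at -0.048 and ERAP1 at -0.059. Leaving out 1 line at a time gave -0.039 to 0.050 for B2M, -0.16 to 0.18 for TAP1, -0.30 to 0.52 for TAP2, -0.11 to 0.26 for PSMB9 and -0.021 to 0.085 for ERAP1. TAPBP, PSMB8, HLA-E and NLRC5 kept their sign under all alternatives run, TAPBP between -0.39 and -0.15, NLRC5 between 0.040 and 0.81, HLA-E between -0.24 and -0.0047 and PSMB8 between -0.22 and -0.044. Causes beyond the line or probe sets left out were not tested. A value near 3.3, such as HLA-E in REC-1, is not resolved from background, so its log2 differences change with the pseudocount.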
